A study of Sus scrofa with 11 samples.

Results

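The glycolysis and hypoxia-response genes described here are the 36 symbols that cover the path from glucose to lactate, its main control points, the oxygen sensors with the hypoxia-inducible factor (HIF) alpha subunits, and a group of well-known HIF target genes. They were chosen by symbol and matched 37 of the 30376 genes in the deposited values, since LDHB stands on 2 genes. Of these, 36 passed the filter on low values, and the LDHB copy on chromosome 2 (12988754 to 12990033) had 0 reads in every wound. Samples were 2-cm full-thickness excisional skin wounds from the backs of female Yucatan minipigs, collected on day 10, with 7 wounds from a single diabetic minipig and 4 wounds from a single non-diabetic minipig. Diabetes had been induced with streptozotocin, a toxin of the insulin-producing beta cells, the animal then received insulin, and insulin was withdrawn before wounding. Both animals carried occlusive dressings, and no other treatment of the wounds was named. Because each group is 1 animal, diabetes and the individual cannot be told apart, and every p-value below measures the spread between wounds within an animal only.

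Glycolysis splits glucose into pyruvate in the cytosol, and lactate dehydrogenase turns the pyruvate into lactate when mitochondria do not take it up. In low oxygen, prolyl hydroxylases no longer mark HIF alpha subunits for degradation, and stabilised HIF induces most glycolytic genes together with angiogenic, pH-regulating and mitophagy genes. HIF is controlled mainly at the protein level, so transcript levels of HIF1A do not report its activity. In healing skin, keratinocytes at the migrating edge, macrophages and proliferating fibroblasts are all known for a high use of glycolysis.

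RNA was measured as FPKM, the number of reads scaled to the length of the gene and the size of the library, and 28314785 to 40168372 reads fell on genes per wound. A single read on a 2-kb gene was worth 0.0112 to 0.0194 FPKM. The least abundant member by mean FPKM, ENO2, had 70 to 189 reads per wound, and the fewest reads behind any tested member were 46, for HK2 in diabetic replicate 4. In some wounds the markers of a cell type stood apart from the other wounds. Diabetic replicate 4 and non-diabetic replicate 1 had summed keratinocyte markers of 75.3 and 371 FPKM, against 2328 to 7976 FPKM in the other 9 wounds. In the same 2 wounds the neutrophil list summed to 75.2 and 334 FPKM against 3840 to 12646 FPKM elsewhere, but 98.8 to 99.8% of that sum in the other 9 wounds came from S100A8, S100A9 and S100A12, which activated keratinocytes also make. Diabetic replicate 3 had a skeletal muscle sum of 3084 FPKM against 14.98 to 25.7 FPKM in the other 10 wounds, with ACTA1, the actin of skeletal muscle, at 957 FPKM. Diabetic replicates 1 and 2 had the lowest fibroblast sums, 23719.8 and 20049 FPKM against 36419 to 68071 FPKM in the other 9 wounds. Most of each sum came from COL1A1, COL1A2 and COL3A1, at 5747, 6406 and 7476 FPKM in diabetic replicate 1. Of the 15 fibroblast markers, PDGFRA went the other way among diabetic wounds. It had 45.4 and 35.1 FPKM in replicates 1 and 2, and 20.3 to 31.7 FPKM in the others. In bulk tissue, fewer cells of a type and less RNA per cell cannot be told apart.

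A single one of these genes differed between diabetic and non-diabetic wounds by the rule used, and most of the measured differences were small. With limma on log2(FPKM + 0.5), a gene was called where the Benjamini-Hochberg adjusted p was below 0.05 and the log2 fold change exceeded 0.5 in size. By that rule 0 of the 36 members were higher in diabetic wounds and 1, ALDOC, was lower, where 1.35% of all 13956 genes tested were called higher and 1.66% lower (188 and 231 genes, or 152 and 293 with every wound rescaled to the same summed FPKM). At an unadjusted p under 0.05, 4 of the 36 differed (18.4% of all genes). Their median log2 fold change, diabetic minus non-diabetic, was -0.12, beside 0.01 over all genes. A negative fold change was found for 24 members (47.7% of all genes) and a positive one for 12, and 33 lay within 0.5 of 0, where 10.6% of all genes lay outside. For 11 members (46.1% of all genes) the whole 95% interval lay within 0.5 of 0, and for the rest it reached beyond 0.5 in size. Without diabetic replicate 4 and non-diabetic replicate 1 the count of called members was again 0 higher and 1 lower (background 0.803% and 0.717%), but the called gene was EGLN3 instead of ALDOC, and the median was -0.09. Diabetic replicate 4 had been pointed out as lowest in hypoxia genes when the genes were chosen, so this EGLN3 call is a description only.

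**Figure D1:**
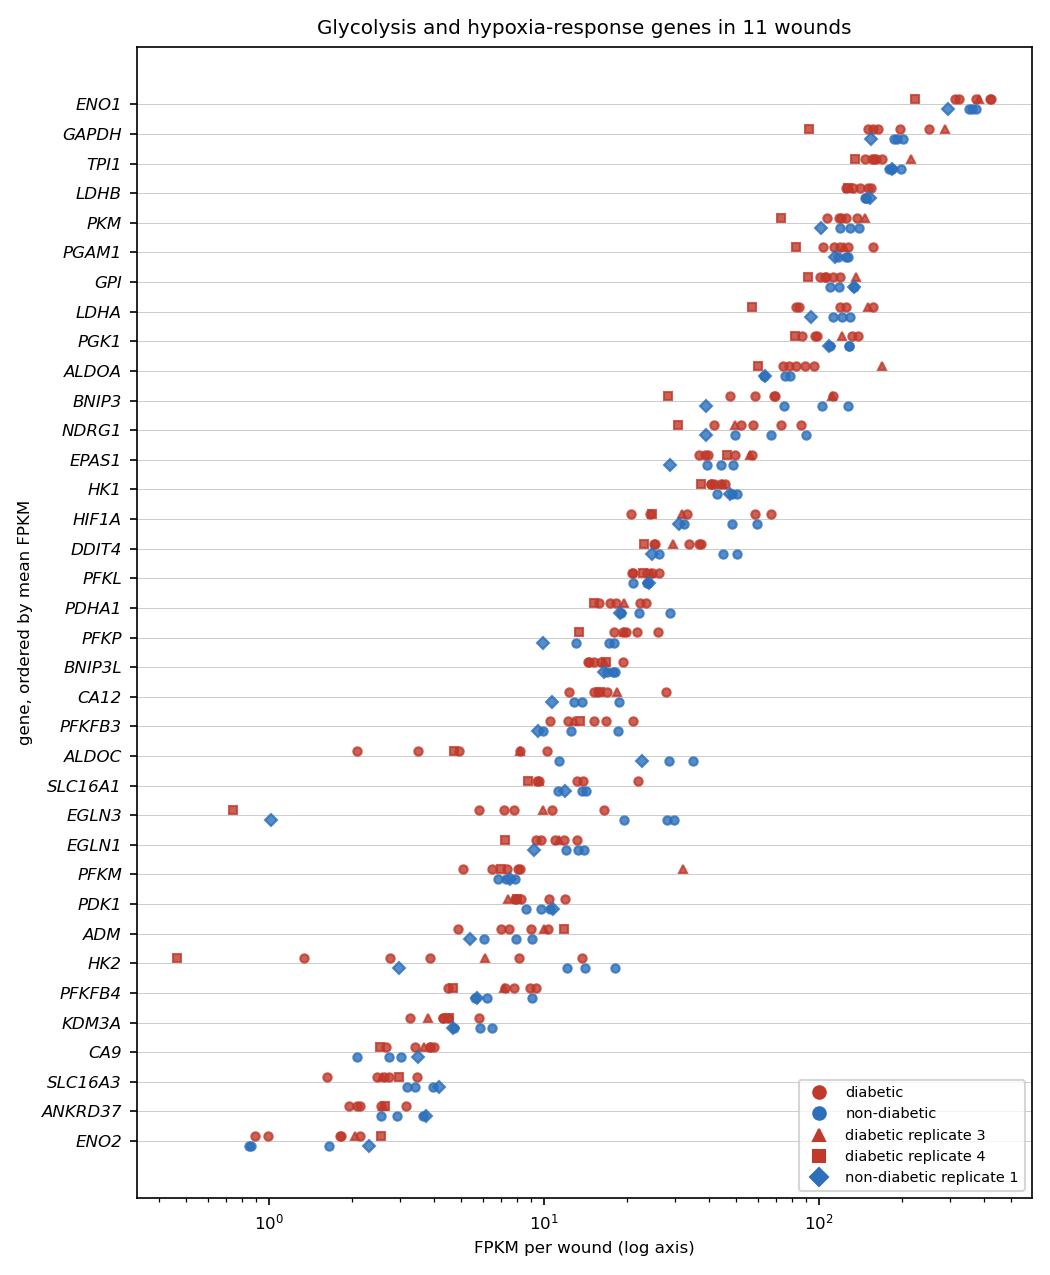
FPKM of the 36 members in each of the 11 wounds (log axis), ordered by mean level, with diabetic wounds in red and non-diabetic wounds in blue. ENO1 lies highest and ENO2 lowest, the groups of ALDOC do not overlap, and diabetic replicate 4 (square) is the lowest diabetic wound in 20 members.

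The sequences of 4 members are shown because the results below turn on these genes. ALDOC is the member called lower, and EGLN3, HK2 and BNIP3 are the members furthest below the other diabetic wounds in diabetic replicate 4. Each is the run of 250 bases just before the annotated start of the gene in RefSeq on Sscrofa11.1, written 5′ to 3′ on the strand of the gene. Capitals mark ACGTG and GCGTG, the core letters of the hypoxia response element bound by HIF, on either strand, so that CACGT and CACGC are the same motifs read from the other strand. The windows are chr12:44827274-44827523 (minus strand) for ALDOC, chr14:140371952-140372201 (minus) for BNIP3, chr7:65805263-65805512 (plus) for EGLN3 and chr3:68231188-68231437 (minus) for HK2.
ALDOC: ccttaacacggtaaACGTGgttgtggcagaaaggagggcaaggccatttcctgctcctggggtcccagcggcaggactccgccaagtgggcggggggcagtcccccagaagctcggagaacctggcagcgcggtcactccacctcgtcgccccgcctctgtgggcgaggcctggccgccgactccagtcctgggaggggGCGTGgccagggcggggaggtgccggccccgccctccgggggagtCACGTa
BNIP3: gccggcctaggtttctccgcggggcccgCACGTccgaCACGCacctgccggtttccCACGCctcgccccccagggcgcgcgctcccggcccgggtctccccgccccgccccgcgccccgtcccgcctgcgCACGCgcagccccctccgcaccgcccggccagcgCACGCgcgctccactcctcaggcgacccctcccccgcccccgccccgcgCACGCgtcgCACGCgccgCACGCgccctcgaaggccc
EGLN3: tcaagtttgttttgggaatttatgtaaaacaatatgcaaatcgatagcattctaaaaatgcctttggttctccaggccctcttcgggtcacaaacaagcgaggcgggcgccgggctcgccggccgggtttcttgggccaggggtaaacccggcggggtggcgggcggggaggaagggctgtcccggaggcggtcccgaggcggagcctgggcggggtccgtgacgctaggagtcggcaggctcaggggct
HK2: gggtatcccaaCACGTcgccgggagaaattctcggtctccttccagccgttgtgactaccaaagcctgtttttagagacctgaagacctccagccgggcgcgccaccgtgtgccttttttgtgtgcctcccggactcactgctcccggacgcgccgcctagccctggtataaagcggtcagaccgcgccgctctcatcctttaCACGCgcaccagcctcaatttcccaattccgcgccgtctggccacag

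ALDOC held 3 matches, BNIP3 8, HK2 2 and EGLN3 0. Over all members, 20 of 36 windows (55.6%) held at least 1 of these motifs, against 42.3% of the windows of 20664 protein-coding genes. ACGTG alone was present in 44.4% of member windows and 18.2% of all, and GCGTG in 38.9% and 31.2%. The member windows were richer in G and C, with a median of 63.8% against 57.2%. A match is a description of the letters, and the absence of one in the EGLN3 window says nothing about sites elsewhere.

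ALDOC, the aldolase isoform known from brain and from hypoxic cells (chromosome 12, 44823376 to 44827273), was lower in diabetic wounds. Its FPKM values in diabetic replicates 1 to 7 were 2.09, 8.18, 8.17, 4.70, 4.93, 10.3 and 3.49, and in non-diabetic replicates 1 to 4 they were 22.7, 28.6, 34.9 and 11.4. The groups did not overlap, although diabetic replicate 6 and non-diabetic replicate 4 came close to each other, and 132 to 2146 reads stood behind the values. The mean was 5.98 ± 2.95 FPKM (SD, n = 7) against 24.4 ± 9.99 (SD, n = 4), and the log2 fold change was -1.98 (SE 0.40, 95% interval -2.85 to -1.10, limma adjusted p = 0.0217). An exact permutation test (two-sided, 330 splits) gave p = 0.00303, the smallest value this design allows. A separation of this kind in the lower direction was found for 2.96% of all genes and for 1 of 36 members. Without diabetic replicate 4 and non-diabetic replicate 1 the log2 fold change of ALDOC was -1.95, but the adjusted p rose to 0.0842. The call was also lost without non-diabetic replicate 1, 2 or 3, with adjusted p-values of 0.0649, 0.0656 and 0.0789 and log2 fold changes of -1.97, -1.87 and -1.77. Of the 10 red blood cell markers only HBB and HBM passed the filter on low values and 0 were called, while their summed level was 0.745 to 19.98 FPKM in diabetic and 19.3 to 43.6 FPKM in non-diabetic wounds, of which HBB made up 18.3 to 42.3 FPKM in the latter. Of the 12 adipocyte markers LEP and THRSP were called lower, with summed levels of 307 to 999 FPKM in diabetic and 389 to 648 FPKM in non-diabetic wounds. Of the 18 macrophage markers 4 were called higher, with summed levels of 2042 to 3659 and 1413 to 2585 FPKM. LYZ alone contributed 38.9 to 2263 FPKM in diabetic and 57.9 to 1432 FPKM in non-diabetic wounds. Its lowest values were in diabetic replicate 4 and non-diabetic replicate 1, the wounds with few keratinocyte markers. The part of these markers in the ALDOC result was not tested.

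ALDOA, the other aldolase among the members, was not called. It was far more abundant than ALDOC in every wound, and its log2 fold change was 0.34 (SE 0.23, limma adjusted p = 0.473). The ratio of ALDOC to ALDOA within a wound was 0.0234 to 0.125 in diabetic wounds (median 0.0514) and 0.181 to 0.464 in non-diabetic wounds (median 0.359). Of 11 pairs of related members compared in this way, it was the only ratio whose groups did not overlap. The LDHA to LDHB ratio, which sets the muscle-type against the heart-type subunit of lactate dehydrogenase, ran from 0.447 to 1.16 in diabetic and from 0.609 to 0.871 in non-diabetic wounds. The ratio of HK2, the inducible hexokinase, to HK1, the housekeeping one, ran from 0.0125 to 0.303 and from 0.0627 to 0.375.

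**Figure D2:**
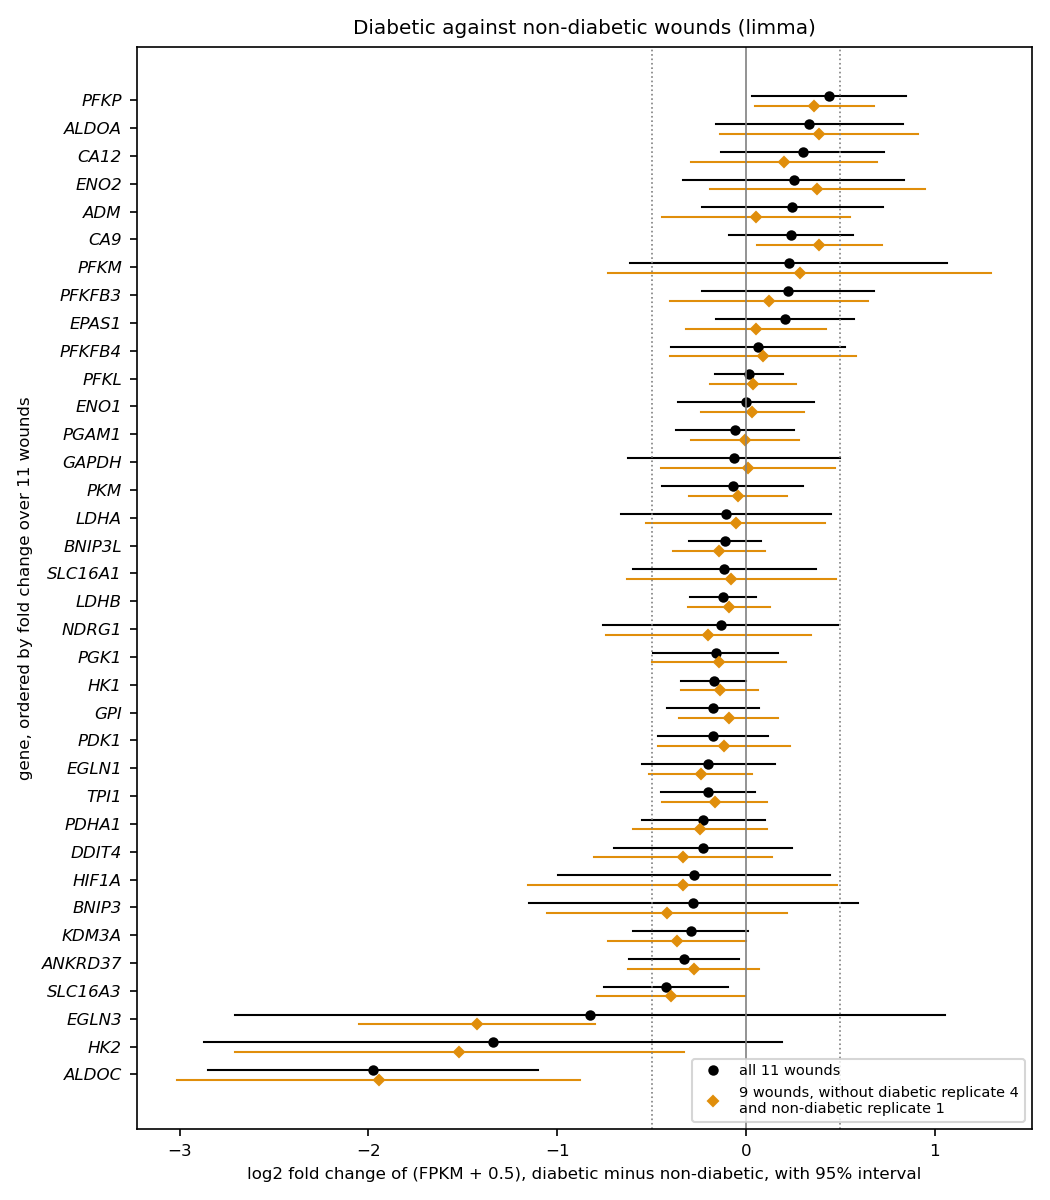
Log2 fold change of log2(FPKM + 0.5), diabetic minus non-diabetic, with its 95% interval for each member from limma, over all 11 wounds (black) and over the 9 wounds without diabetic replicate 4 and non-diabetic replicate 1 (orange); dotted lines mark 0.5 either side of 0. Most points lie close to 0, ALDOC lies at -1.98, and the interval of EGLN3 shrinks from -2.71 to 1.06 to -2.05 to -0.80 over 9 wounds.

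In upper glycolysis, which spends ATP to prepare the sugar, 1 of 9 genes was called (ALDOC) and the median log2 fold change was -0.17. HK1, the hexokinase that most tissues use, had a narrow interval, with a log2 fold change of -0.17 (SE 0.08, 95% interval -0.34 to 0.00, limma adjusted p = 0.277). HK2 had the largest change after ALDOC and the widest spread in this group. Its FPKM values were 13.8, 8.13, 6.12, 0.465, 3.86, 2.77 and 1.34 in diabetic replicates 1 to 7 and 2.98, 14.1, 18.1 and 12.2 in non-diabetic replicates 1 to 4. Diabetic replicate 4 and non-diabetic replicate 1 were the lowest of their groups and the groups overlapped, so that the log2 fold change of -1.34 (SE 0.70, 95% interval -2.87 to 0.19, adjusted p = 0.341, exact permutation p = 0.124) did not pass. Among the phosphofructokinases, which catalyse the committed step, the platelet isoform PFKP had a log2 fold change of 0.44 (95% interval 0.03 to 0.85, adjusted p = 0.234), the liver isoform PFKL 0.01 (95% interval -0.16 to 0.19) and the muscle isoform PFKM 0.23 (95% interval -0.61 to 1.07). GPI, which isomerises glucose 6-phosphate, stood at -0.17 (adjusted p = 0.446).

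TPI1, which interconverts the 3-carbon sugars, was the most abundant gene of upper glycolysis. Its FPKM values were 147, 170.0, 216, 136, 159, 161 and 157 in diabetic replicates 1 to 7 and 184, 199, 184 and 180.0 in non-diabetic replicates 1 to 4. All diabetic wounds except replicate 3 lay below the 4 non-diabetic wounds, and the log2 fold change was -0.20 (SE 0.11, limma adjusted p = 0.380).

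Of the 6 genes of lower glycolysis, which yields ATP, 0 were called and 4 had a 95% interval within 0.5 of 0, with a median log2 fold change of -0.06. ENO1, the ubiquitous enolase, was the most abundant member. Its FPKM values were 424, 419, 381, 223, 374, 313 and 324 in diabetic replicates 1 to 7 and 296, 373, 351 and 360.1 in non-diabetic replicates 1 to 4. The non-diabetic values fell inside the diabetic range, with a log2 fold change of 0.00 (SE 0.16, 95% interval -0.36 to 0.36, limma adjusted p = 0.997). GAPDH, often used as a reference gene, stood at 198, 251, 286, 91.8, 164, 151 and 157 FPKM in diabetic replicates 1 to 7 and at 155, 187, 202 and 192 FPKM in non-diabetic replicates 1 to 4. The means were almost equal, at 186 ± 65.6 (SD, n = 7) and 184 ± 20.4 FPKM (SD, n = 4), and both the highest and the lowest wound were diabetic. PGK1 (log2 fold change -0.16), PGAM1 (-0.06), PKM (-0.07) and the neuronal enolase ENO2 (0.25) had adjusted p-values of 0.633, 0.870, 0.874 and 0.672.

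None of the 4 lactate genes was called (0 of 4, median -0.12). LDHB was among the 4 most abundant members, with 151, 155, 130.1, 128, 125, 141 and 133 FPKM in diabetic replicates 1 to 7 and 154, 147, 148 and 149 FPKM in non-diabetic replicates 1 to 4. The non-diabetic wounds were nearly equal and lay in the upper part of the diabetic range, with a log2 fold change of -0.12 (SE 0.08, 95% interval -0.30 to 0.05, limma adjusted p = 0.458). LDHA, the subunit that HIF induces, varied more, at 157, 125, 151, 57.2, 119.6, 82.7 and 84.9 FPKM in diabetic replicates 1 to 7 and 93.6, 113, 121 and 129.7 FPKM in non-diabetic replicates 1 to 4 (log2 fold change -0.11, SE 0.25, adjusted p = 0.870). SLC16A3, the lactate exporter of glycolytic cells, had a log2 fold change of -0.42 (SE 0.15, adjusted p = 0.153, exact permutation p = 0.0182). SLC16A1, the other monocarboxylate carrier, stood at -0.11 (adjusted p = 0.836).

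The 4 genes that control the flux or the entry of pyruvate into mitochondria gave 0 calls and a median of -0.05. PFKFB3 and PFKFB4, which make the activator of phosphofructokinase, had log2 fold changes of 0.22 and 0.07 and neither passed. PDK1, which switches pyruvate dehydrogenase off, stood at -0.17 (adjusted p = 0.534), and PDHA1, a subunit of that enzyme, at -0.22 (adjusted p = 0.468).

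Of the 4 oxygen-sensing genes 0 were called over all 11 wounds. HIF1A had 67.1, 58.4, 31.8, 24.8, 33.1, 20.7 and 24.4 FPKM in diabetic replicates 1 to 7 and 31.1, 32.3, 59.5 and 48.2 FPKM in non-diabetic replicates 1 to 4. Both groups held high and low wounds, and the log2 fold change was -0.28 (SE 0.33, 95% interval -0.997 to 0.44, limma adjusted p = 0.712). EPAS1, which encodes HIF2 alpha, had 49.4, 57.3, 56.1, 46.2, 39.6, 36.8 and 38.6 FPKM against 28.7, 39.3, 44.1 and 48.9 FPKM in the same order (log2 fold change 0.21, SE 0.17, adjusted p = 0.564). EGLN1, the main HIF prolyl hydroxylase, stood at -0.20 (adjusted p = 0.562).

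EGLN3, the prolyl hydroxylase that HIF itself induces, depended on which wounds were counted. Its FPKM values were 7.77, 5.82, 9.97, 0.744, 10.7, 16.6 and 7.17 in diabetic replicates 1 to 7 and 1.02, 29.7, 19.6 and 28.1 in non-diabetic replicates 1 to 4. The 2 wounds near 1 FPKM are those with few keratinocyte markers, and with them the log2 fold change was -0.83 (SE 0.86, 95% interval -2.71 to 1.06, limma adjusted p = 0.668). In the other 9 wounds the groups did not overlap, at 5.82 to 16.6 FPKM (median 8.87, n = 6) and 19.6 to 29.7 FPKM (median 28.1, n = 3), and the log2 fold change was -1.43 (SE 0.28, 95% interval -2.05 to -0.80, adjusted p = 0.0376). These 9 wounds were set apart by their marker levels after the values were known. Diabetic replicate 4 had also been pointed out as lowest in hypoxia genes when the genes were chosen. Both wounds left out were the lowest of their groups for EGLN3 itself. The result over 9 wounds is therefore a description, and its adjusted p is not that of an independent test. Of 26 alternatives to the fit over all 11 wounds, EGLN3 was called in 1 only, the fit over these 9 wounds. Among all genes, 4.52% separated in the lower direction in these 9 wounds, as did 2 of the 36 members, ALDOC and EGLN3.

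Of the 9 other hypoxia-induced genes 0 were called, with a median of -0.13. BNIP3, a mitophagy receptor, had 47.7, 68.8, 111, 28.2, 69.3, 113 and 58.4 FPKM in diabetic replicates 1 to 7 and 38.9, 128, 74.5 and 103 FPKM in non-diabetic replicates 1 to 4, with the same 2 wounds lowest (log2 fold change -0.28, SE 0.40, limma adjusted p = 0.770). Its relative BNIP3L stood at -0.11 (adjusted p = 0.556). The carbonic anhydrases CA9 and CA12, which regulate pH at the cell surface, had log2 fold changes of 0.24 and 0.30 (adjusted p = 0.443 and 0.461), and ADM, a vasodilator peptide, 0.25 (adjusted p = 0.608). ANKRD37 (-0.33, adjusted p = 0.217), the histone demethylase KDM3A (-0.29, adjusted p = 0.292), the mTORC1 inhibitor DDIT4 (-0.23, adjusted p = 0.630) and NDRG1 (-0.13, adjusted p = 0.851) lay on the other side of 0.

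Diabetic replicate 4 was the lowest of the 7 diabetic wounds in 20 of the 36 members, where it was the lowest in 20.4% of all genes. It was the highest in 2 members, ADM and ENO2 (17.9% of all genes). Because this wound was pointed out when the genes were chosen, these counts are a description. On the log2(FPKM + 0.5) scale its difference from the median of the other diabetic wounds was -2.90 for EGLN3, -2.48 for HK2, -1.27 for BNIP3, -1.09 for LDHA and -0.97 for GAPDH. The median difference was -0.36 over the members and 0.01 over all genes, and 13 of 36 members lay more than 0.5 below, as did 1681 of the 13956 genes. The shift was small for HK1 (-0.19), LDHB (-0.10) and PFKL (-0.07). The 17 members that encode enzymes of the path from hexokinase to lactate dehydrogenase, LDHA and LDHB included, together made up 1113 FPKM, or 0.264% of all FPKM, in this wound, against 1456 to 2002 FPKM, or 0.338 to 0.487%, in the other 10.

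Non-diabetic replicate 1, the other wound with few keratinocyte markers, was the lowest of its group in 21 of 36 members, against 31.3% of all genes. Its difference from the median of the other non-diabetic wounds was -4.23 for EGLN3, -2.07 for HK2 and -1.39 for BNIP3 on the same scale. Both wounds lay more than 0.5 below their groups in 6 members (16.7%), BNIP3, EGLN1, EGLN3, HK2, NDRG1 and PFKP, and in 8.76% of all genes. SLC2A1, the glucose carrier GLUT1, is no member and was looked at after its values were seen. It was at 6.68 FPKM in diabetic replicate 4 and 20.3 FPKM in non-diabetic replicate 1, against 71.0 to 119.8 FPKM in the other diabetic and 57.7 to 120.0 FPKM in the other non-diabetic wounds. For HK2, diabetic replicates 6 and 7 lay below non-diabetic replicate 1, at 2.77 and 1.34 against 2.98 FPKM. Their keratinocyte sums were 7976 and 7058 FPKM. KRT1 and KRT10 made up 2940 and 1960 FPKM of this in replicate 6, and 2561 and 1207 FPKM in replicate 7. Apart from the 2 wounds with few keratinocyte markers, the other wounds had 118 to 358 FPKM of KRT1 and 37.8 to 445 FPKM of KRT10. KRT5 stood at 1112 and 1278 FPKM in replicates 6 and 7, against 817 to 2861 FPKM in those wounds. The part of the keratinocyte content in the levels of these members and of SLC2A1 was not tested.

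**Figure D3:**
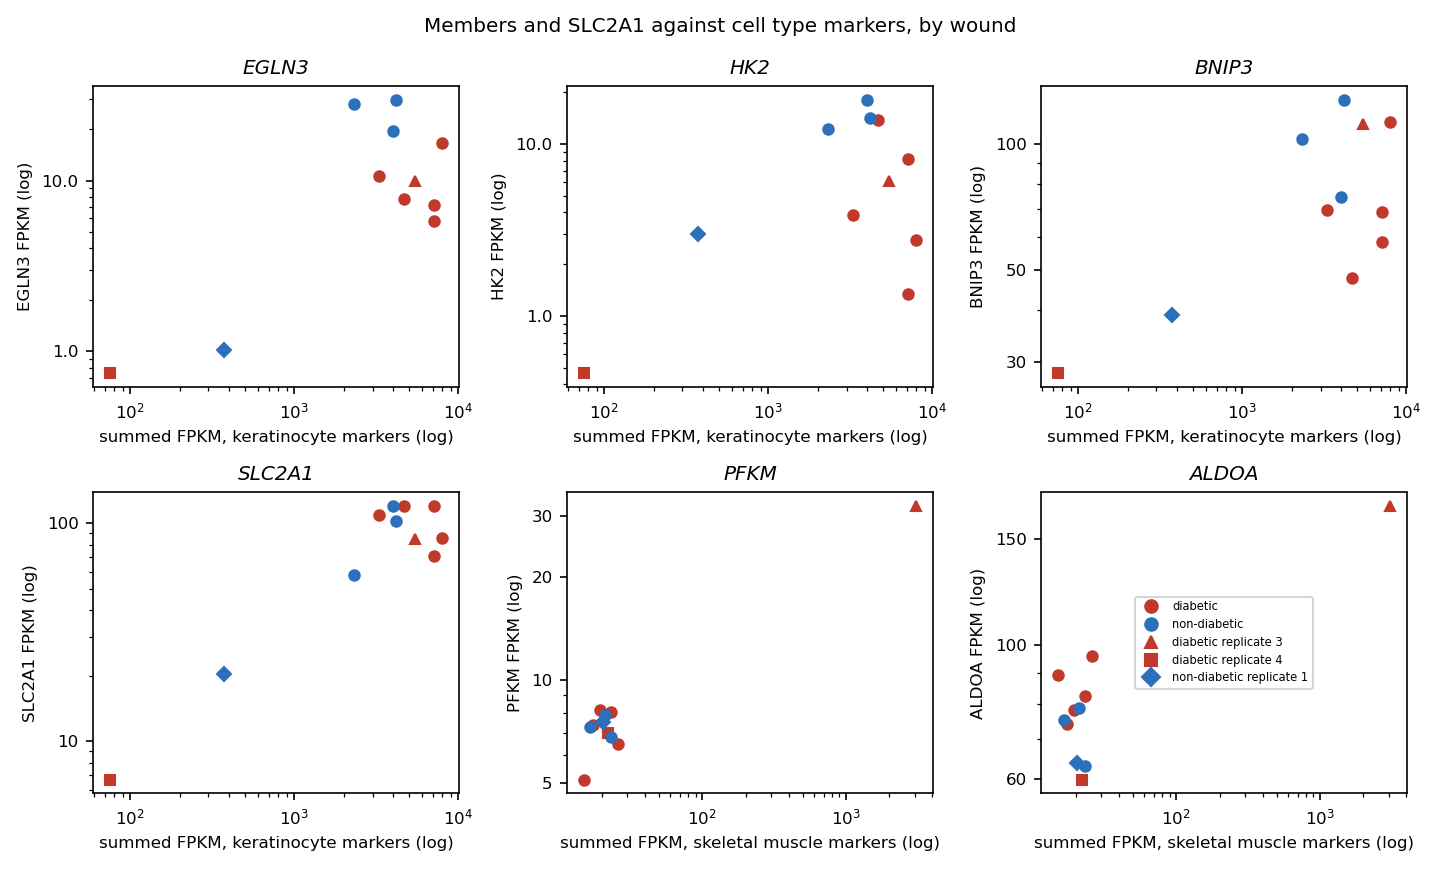
FPKM of EGLN3, HK2, BNIP3 and SLC2A1 against the summed FPKM of the keratinocyte markers, and of PFKM and ALDOA against that of the skeletal muscle markers, with 1 point per wound and log axes. Diabetic replicate 4 and non-diabetic replicate 1 sit at keratinocyte sums of 75.3 and 371 and lowest of their groups in the first 4 genes. In HK2, diabetic replicates 6 and 7 lie below non-diabetic replicate 1, at keratinocyte sums of 7976 and 7058. KRT1 and KRT10 make up 2940 and 1960 FPKM of the sum in replicate 6, and 2561 and 1207 FPKM in replicate 7. Diabetic replicate 3 sits at a muscle sum of 3084 and highest in PFKM and ALDOA.

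Diabetic replicate 3, the wound with muscle transcripts, had the highest PFKM value of all, at 32.1 FPKM against 5.10 to 8.16 FPKM in the other 10 wounds. PFKM is the phosphofructokinase of muscle, and without this wound its log2 fold change turned from 0.23 to -0.08. ALDOA, the muscle aldolase, stood at 170.0 FPKM in this wound and at 59.9 to 95.9 FPKM elsewhere. TPI1 and GAPDH were also highest there, at 216 and 286 FPKM. The part of muscle tissue in these 4 values was not tested.

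The library names open with the letter L or R, whose meaning is not given in the labels, and the diabetic group holds 3 wounds named L and 4 named R, the non-diabetic group 2 and 2. Among wounds named L, HIF1A had 31.8 to 67.1 FPKM in diabetic and 31.1 to 32.3 FPKM in non-diabetic wounds, and among wounds named R it had 20.7 to 33.1 and 48.2 to 59.5 FPKM. The high diabetic values named L, 67.1 and 58.4 FPKM, were those of diabetic replicates 1 and 2, the 2 wounds with the lowest fibroblast sums. These wounds also had the lowest quality weights when limma estimated 1 weight per wound, 0.373 and 0.475 against 0.609 to 2.00 in the other 9, and their part in the differences between the letters was not tested beyond leaving each out. PGK1 crossed over fully, at 121 to 139 FPKM against 108 to 110.1 FPKM for L and 82.1 to 98.6 against 128.9 to 129.1 FPKM for R. PDHA1, LDHA and GAPDH also separated in opposite directions, so that 4 of 36 members were higher in every diabetic wound named L and lower in every one named R (3.51% of all genes), and 0 members did the reverse (5.02%). Tested within a letter, 0 members were called for L (0.0358% of all genes higher, 0.0287% lower), and for R ENO2 was called higher (1 member, 5.20% of all genes) and HIF1A, HK2, PDHA1 and PGK1 lower (4 members, 4.94%). ALDOC stood at -2.16 (adjusted p = 0.200) for L and -1.80 (adjusted p = 0.0756) for R. The log2 fold change was above 0 for L and below 0 for R in 17 members (47.2%), against 29.4% of all genes, and the reverse held for 3 members (8.33%) against 27.7%. Without diabetic replicate 4 and non-diabetic replicate 1 these counts were 12 members (33.3%) against 26.2% of all genes, and 4 of 36 members against 28.7%.

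The difference between the letters was tested as an interaction in limma over all genes, a test added after these values were seen. It passed an adjusted p of 0.05 in 5 of 36 members (13.9%) and in 6.46% of all genes. The diabetic effect was lower in R than in L by a log2 difference of -1.71 (SE 0.41, adjusted p = 0.0449) for HIF1A, -0.76 (SE 0.15, adjusted p = 0.0410) for PGK1, -0.78 (SE 0.19, adjusted p = 0.0464) for PDHA1 and -0.89 (SE 0.21, adjusted p = 0.0444) for EPAS1. For ENO2 it was higher, by 1.42 (SE 0.36, adjusted p = 0.0493). All 5 lay close to the threshold, and 0 members passed after quantile normalisation, after leaving out any 1 wound other than diabetic replicate 3, or without diabetic replicate 4 (named R) and non-diabetic replicate 1 (named L), where 0.00717% of all genes passed and 9 members had an unadjusted p under 0.05 (18.9% of all genes). Without diabetic replicate 3 the count was 5 members, beside 24.1% of all genes.

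**Figure D4:**
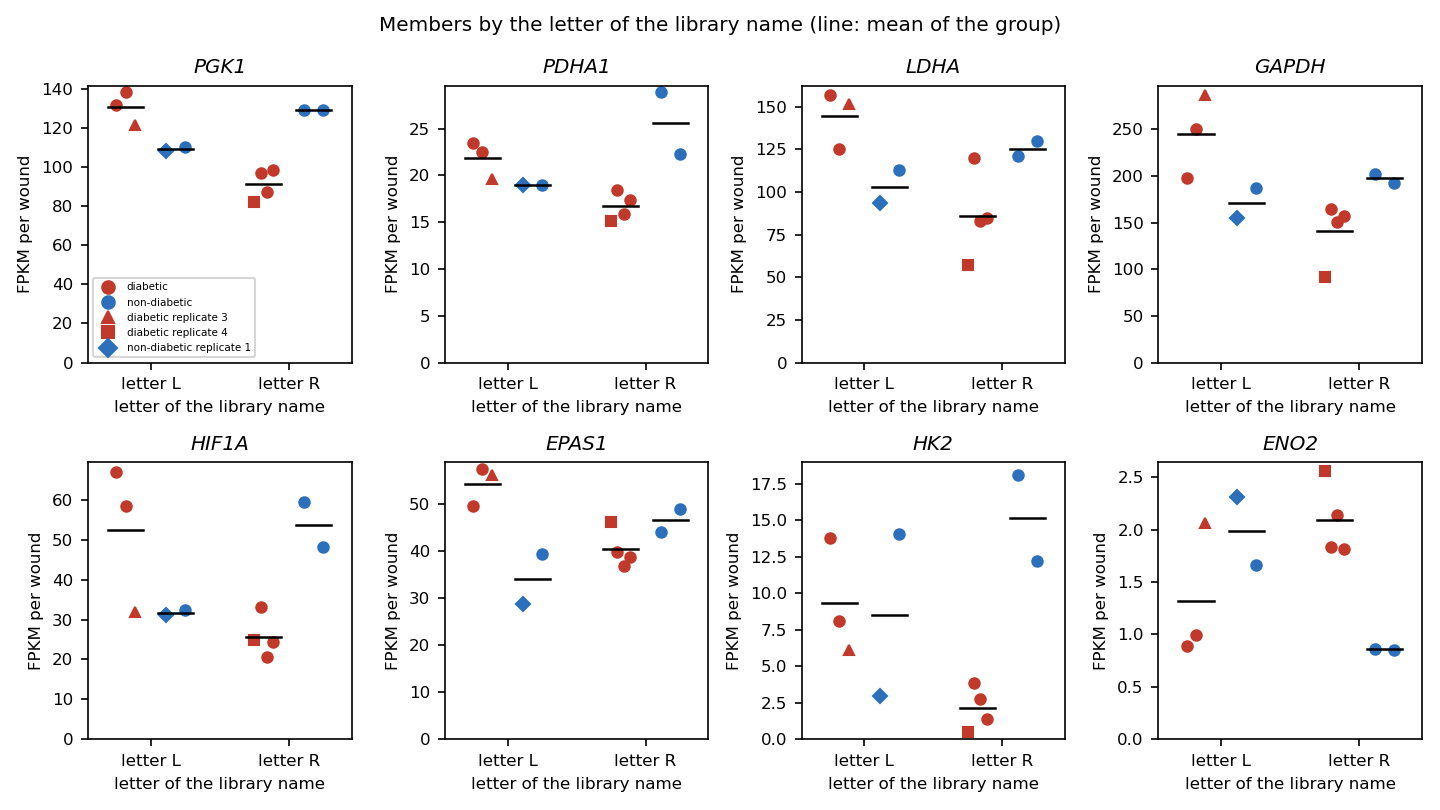
FPKM per wound of 8 members, split by the letter that opens the library name, with the mean of each group as a line (diabetic red, non-diabetic blue). PGK1, PDHA1, LDHA and GAPDH are higher in diabetic wounds named L and lower in those named R; ENO2 has its lowest values in the non-diabetic wounds named R.

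A wider list of 68 tested genes of the same pathways gave 1 call higher and 3 lower, with a median log2 fold change of -0.05. Among all genes tested, 1.35% were called higher and 1.66% lower. Of 25 further glycolysis and pyruvate genes 0 were called higher and 1 lower, and of 43 further HIF pathway and hypoxia-induced genes 1 was higher and 2 were lower. ANGPTL4, a secreted inhibitor of lipoprotein lipase that both HIF and PPAR factors are known to induce, showed the largest difference. Its FPKM values were 107, 64.4, 129.7, 138, 131, 140.1 and 129 in diabetic replicates 1 to 7 and 12.3, 28.2, 16.0 and 23.5 in non-diabetic replicates 1 to 4. No diabetic wound came near the non-diabetic range (log2 fold change 2.58, SE 0.25, limma adjusted p = 0.000338).

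PLOD2 and P4HA1, which hydroxylate lysine and proline in collagen and are known HIF targets, were both lower. PLOD2 had 25.3, 23.3, 26.7, 32.2, 26.9, 19.6 and 22.6 FPKM in diabetic replicates 1 to 7 and 51.2, 42.1, 47.8 and 60.1 FPKM in non-diabetic replicates 1 to 4 (log2 fold change -0.98, SE 0.13, limma adjusted p = 0.00243). P4HA1 had 31.0, 26.9, 31.9, 33.8, 39.6, 33.9 and 34.4 FPKM against 62.6, 45.3, 49.9 and 47.4 FPKM (log2 fold change -0.62, SE 0.11, adjusted p = 0.0139). The groups overlapped for neither gene.

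PDP2, a phosphatase that switches pyruvate dehydrogenase on, had 2.05, 2.07, 1.41, 1.58, 1.30, 1.18 and 1.41 FPKM in diabetic replicates 1 to 7 and 3.21, 2.37, 3.39 and 2.40 FPKM in non-diabetic replicates 1 to 4. Its groups did not overlap, with a log2 fold change of -0.69 (SE 0.15, limma adjusted p = 0.0290). The call was lost without diabetic replicate 3, 5 or 7 or non-diabetic replicate 1, 3 or 4, at adjusted p-values of 0.0597, 0.0606, 0.0588, 0.0932, 0.107 and 0.0503. GBE1, the glycogen branching enzyme, came next at -0.42 and an adjusted p of 0.0813. Without diabetic replicate 4 and non-diabetic replicate 1, ANGPTL4 was still called higher and PLOD2 lower, whereas P4HA1 (-0.53, adjusted p = 0.0616) and PDP2 (-0.64, adjusted p = 0.118) were not. The groups also separated for HILPDA, a lipid droplet protein (log2 fold change 0.65, adjusted p = 0.102), and AK4, a mitochondrial adenylate kinase (-0.67, adjusted p = 0.101), both named after their values were seen. In all, 2 of these 68 genes separated higher and 4 lower, against 2.69% and 2.96% of all genes.

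**Figure D5:**
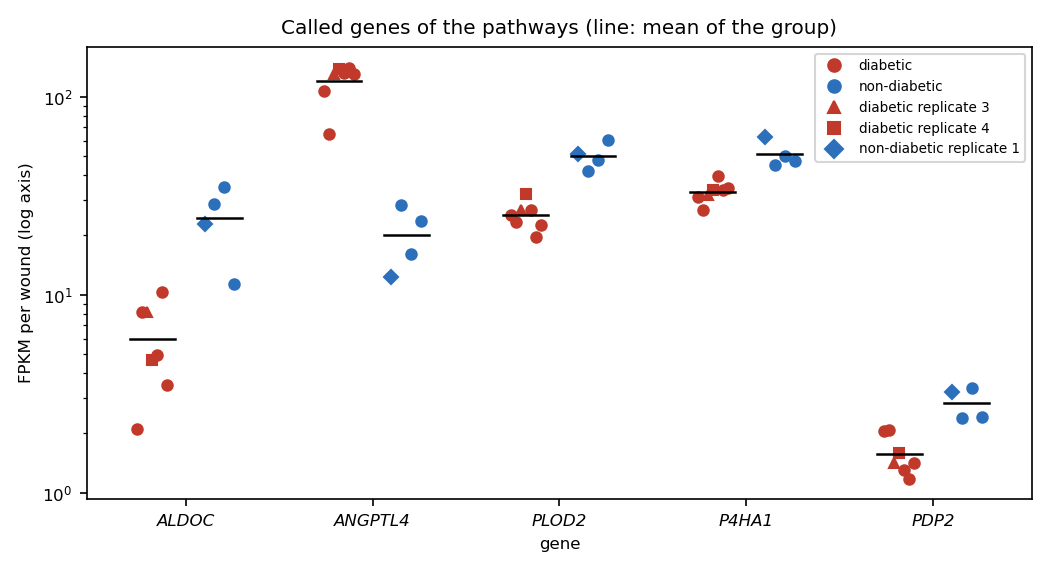
FPKM per wound (log axis) of ALDOC and of the 4 called genes of the wider list, with the mean of each group as a line (diabetic red, non-diabetic blue). ALDOC, PLOD2, P4HA1 and PDP2 lie lower and ANGPTL4 higher in every diabetic wound than in every non-diabetic wound.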

How the data were processed

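RNA was sequenced from 11 wounds, 7 diabetic and 4 non-diabetic, with a directional poly(A) library each. Per the submitters' processing notes, reads were cleaned with fastp, aligned to Sscrofa11.1 by HISAT2 2.2.1, assembled by StringTie 2.2.3 and assigned to genes by featureCounts 2.0.6. The authors deposited FPKM values, whose formula is not given in the sources used here. Multiplied by gene length, 100.0% of the deposited values were whole reads within 0.05 reads. The reads on genes were 0.849 to 1.17 times the library size implied by the values, so a scaling other than the total is already in them.

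The comparison used log2(FPKM + 0.5), a scale that understates folds of low genes, over the 13956 genes that reached 0.5 FPKM in 4 or more libraries. It was fitted with limma 3.58.1 in R 4.3.3 (lmFit, then eBayes with a mean-variance trend), p-values were adjusted by Benjamini-Hochberg, and a call needed an adjusted p below 0.05 with a log2 fold change beyond 0.5 in size. The fit was tested on simulated reads, drawn with the same setting of spread for all genes. The simulation held no differences in cell content between wounds and none between animals, so it cannot show how calls fare under these. Single genes were also compared with an exact permutation test. The members and lists were chosen with earlier results of these data known. Values in every wound are given for members called or separating the groups, the 4 most abundant, the HIF alpha subunits, the 5 furthest down in diabetic replicate 4 and the called genes of the wider list, of which the 5 with the smallest adjusted p are named. P4HA1 and PLOD2 are named because the study names them.

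Another gene overlaps 14 members. Apart from GPI, it lies on the opposite strand, where its reads could affect the member only if counting ignored the strand. GPI overlaps a lncRNA of the same strand with at most 7.22 FPKM. Promoter windows came from the RefSeq annotation of the same build, in which 30335 identifiers had the same start and end. The alternatives changed the pseudocount, filter, scaling, variance trend, library weights, replicate block, letter, wounds and use of voom on the recovered reads. The interaction with the letter, its alternatives and the fit without diabetic replicates 3 and 4 and non-diabetic replicate 1 were added after the data were seen. Figures were made with matplotlib 3.10.9.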

Additional observations from a re-analysis of the deposited data

Results flagged for a closer look

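Of 72 sets of values, 36 members in each of the 2 groups, 6 held a wound that stood apart from the rest of its group by Dixon's 95% criterion, and chance alone gives about 1 in 20. Diabetic replicate 3 was the highest of 7 for PFKM (32.1 FPKM, next 8.16), ALDOA (170.0 FPKM, next 95.9) and TPI1 (216 FPKM, next 170.0), and it is the wound with a skeletal muscle marker sum of 3084 FPKM, whose part in these values was not tested. Diabetic replicate 1 was the highest for SLC16A1 (22.0 FPKM, next 13.9) and CA12 (27.7 FPKM, next 18.5). Non-diabetic replicate 3 was the lowest of 4 for PFKL (21.1 FPKM, next 23.7).

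The diabetic effect differed between wounds named L and R, by the interaction in limma at an adjusted p under 0.05, in 5 members and 5 genes of the wider list. The log2 differences, R minus L, were -1.71 for HIF1A, -0.76 for PGK1, -0.78 for PDHA1, -0.89 for EPAS1 and 1.42 for ENO2. In the wider list they were -3.99 for TFRC, the transferrin receptor, -1.37 for ERO1A, an oxidase of the endoplasmic reticulum, -2.002 for STC1, stanniocalcin, 0.75 for BSG, the chaperone of the lactate carriers, and 1.04 for KDM4B, a histone demethylase, of 68 genes tested (7.35%, against 6.46% of all genes). TFRC had 1.01 to 8.53 FPKM in diabetic and 0.851 to 0.858 FPKM in non-diabetic wounds named L, and 0.319 to 0.661 and 3.67 to 4.71 FPKM in wounds named R. These 5 genes of the wider list were named after their values were seen. Across the 14 other settings the 5 members kept their direction, with adjusted p-values from 0.00329 to 0.246.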

How the results depend on the processing

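With each group a single animal, and 11 wounds, only large or even differences could pass. Of 41 genes followed over 26 alternatives, 982 of 1066 results kept direction and side of the threshold, 27 lost the call, 6 gained one and 51 changed sign, 0 of them among called genes. The pseudocounts, filters, variance trend and letter covariate changed none.

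The replicate numbers do not pair the wounds, which come from different animals (correlations of same-numbered wounds -0.27, 0.22, 0.07 and -0.48). Diabetic replicates 5, 6 and 7 share no number with a non-diabetic wound. With the number as a block, the diabetic effect therefore came from replicates 1 to 4 alone, in pairs without meaning. In that fit members called lower went from 1 to 0, wider-list genes to 0 higher and 0 lower, and all genes to 11 and 5. ALDOC stood at -2.03 (limma adjusted p = 0.179). The sign turned for PFKFB4 (-0.17), PFKL (-0.0488), LDHA (0.0103), GAPDH (0.0532) and HIF1A (0.0258).

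Calls higher and lower were 0 and 0 (members), 0 and 0 (wider list) and 5 and 4 (all genes) in wounds named L, and 1 and 4, 4 and 6, and 726 and 689 in wounds named R. Array weights gave 3 and 5 in the wider list and 406 and 416 over all genes. Without diabetic replicate 4 and non-diabetic replicate 1, 1 wider-list gene was lower, 112 genes in all were higher and 100 lower; leaving out diabetic replicate 3 as well gave 0 members lower, 1 wider-list gene lower and 70 and 68 genes in all. Leaving out each wound in turn gave 0 to 0 members higher, 0 to 1 lower, 1 to 2 and 2 to 4 in the wider list, and 110 to 236 and 99 to 246 over all genes. The member median moved to 0.17 for L and ran from -0.15 to -0.06 with a wound left out.

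For L alone the sign turned for PDHA1 (0.19), PFKFB4 (-0.22), HK2 (0.39), PFKL (-0.11), LDHA (0.48), SLC16A1 (0.27), ENO2 (-0.50), GAPDH (0.51), PGAM1 (0.17), PGK1 (0.25), PKM (0.19), BNIP3 (0.0209), DDIT4 (0.20), NDRG1 (0.0558), EGLN1 (0.0922), EGLN3 (0.27) and HIF1A (0.65), and for R alone for ENO1 (-0.23), CA12 (-0.0875) and EPAS1 (-0.21). It turned with quantile normalisation for PFKL (-0.0688) and ENO1 (-0.17), with the same summed FPKM for PFKFB4 (-0.0035), PFKL (-0.0575) and ENO1 (-0.0717), for ENO1 with array weights (-0.0366) and voom (-0.0011), for GAPDH without diabetic replicate 4 and non-diabetic replicate 1 (0.0107), and without diabetic replicate 3 as well for PFKM (-0.0708), ADM (-0.0134) and EPAS1 (-0.0073). With 1 wound left out, the ranges that crossed 0 were -0.0699 to 0.106 for ENO1, -0.182 to 0.0909 for GAPDH, -0.203 to 0.0384 for LDHA, -0.33 to 0.0720 for NDRG1, -0.0055 to 0.214 for PFKFB4, -0.0285 to 0.0401 for PFKL, -0.0791 to 0.345 for PFKM, -0.132 to 0.0214 for PGAM1 and -0.155 to 0.0406 for PKM. The cause was not tested.

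The letter difference passed in 0 members and 12 genes with quantile normalisation, in 7 members and 1082 genes with the same summed FPKM (where the median difference over all genes was -0.26 and over the members -0.69), in 0 and 1 without diabetic replicate 4 and non-diabetic replicate 1, and in 0 to 5 members and 0 to 3359 genes with 1 wound left out.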
